A study of Drosophila melanogaster with 6 samples.

Results

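The whole-embryo transcriptome of control embryos of Drosophila melanogaster at stages 12 to 13 was described from 3 arrays, out of 6 in the series. The 3 arrays were chosen by their label 2xbcd: TT16 males had been crossed to TT16 females, and the mothers carried 2 copies of bicoid (bcd), the gene whose maternal RNA sets the anterior pattern of the embryo. The fathers of the other 3 arrays, which are not used here, were TT16 males too. Eggs were laid over 90 min and kept for 8 h at 25 degrees, unfertilised eggs were taken out, and each RNA sample came from over 100 dechorionated eggs. Each of the 3 independent RNA samples was hybridised to 1 array, and the samples are called batches 1, 2 and 3 by their replicate numbers, which have no order. What alleles TT16 carries is not given in the labels.

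At these stages the germ band, which had folded over the dorsal side, retracts, and the segments come to lie in their final order. Neuroblasts, the stem cells of the nervous system, divide and give off neurons and glia. Meanwhile myoblasts begin to fuse into muscle fibres, tracheal pits join into a branched airway, the parts of the midgut meet, and blood cells spread and engulf dying cells. Maternal RNAs have by then largely been replaced by those made by the embryo, whereas cuticle, synapses and digestive secretions are formed later.

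Signals are given as deposited, on a linear scale on which every array has the same trimmed mean of 500. Of 18769 probe sets, 8976 (47.8%) had the authors' present call on all 3 arrays and 7306 (38.9%) had an absent call on all 3. Batch 1 had 10311 present calls, batch 2 had 9896 and batch 3 had 9697, and the median signal was 60.0, 50.5 and 44.8 in the same order. Each gene was represented by its brightest probe set, and 7298 of 11982 named genes (60.9%) were present on all 3 arrays and 3143 (26.2%) were absent on all 3. Genes were ranked by the mean of log2(signal + 16), and a percentile is the share of named genes with a mean up to that of the gene. A probe set's signal also depends on how well its probes bind, so ranks and percentiles are of signal and do not order genes by RNA amount. The group has 3 arrays and no contrast, so no test was made, and the number of arrays limits the precision.

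**Figure D1:**
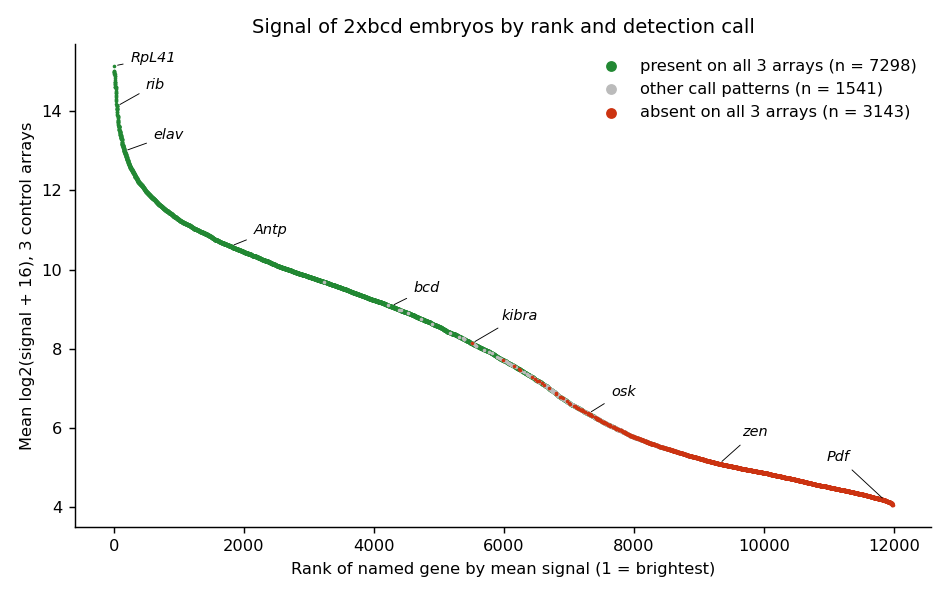
Mean log2(signal + 16) over the 3 control arrays (y axis) against the rank of the named gene (x axis, 1 is the brightest), with points coloured by detection call. The 7298 genes present on all 3 arrays fill the upper ranks, the 3143 genes absent on all 3 fill the lower ranks, and kibra is the brightest absent gene.

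The brightest named genes were those of the ribosome. RpL41, a protein of the large ribosomal subunit, was first, with 34917, 38688 and 34950 in batches 1, 2 and 3. RpS18, RpLP1, RpLP2 and RpS20 followed, and 22 of the 25 brightest named genes encoded ribosomal proteins. The exceptions were Hsc70-4, a constitutive chaperone, eEF5, a translation factor, and ND-MLRQ, a protein of the mitochondrial respiratory chain. Hsc70-4 gave 26453, 28972 and 26602, a range of 1.10-fold on the log2(signal + 16) scale.

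Outside ribosomal proteins and translation factors, the 20 brightest genes were a mixture of housekeeping and tissue genes. tsr, which encodes the actin-severing protein cofilin, gave 22895, 24049 and 21113. apolpp, which encodes the apolipoprotein of the fat body's lipid carrier, gave 21834, 19590 and 19647. Fer1HCH, a ferritin subunit, Ama, an extracellular partner of the adhesion protein Neurotactin, Lamp1, a lysosomal membrane protein, and the histone variant His2Av were in the same group. So were the ubiquitin gene Ubi-p63E, the tubulin gene betaTub56D, the mitochondrial ADP/ATP carrier sesB and the 14-3-3 protein 14-3-3epsilon. A single transcription factor, rib, and a single odorant binding protein, Obp99a, also stood among these 20.

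General machinery was detected nearly throughout, with 185 of 201 measured genes (92.0%) present on all 3 arrays and 13 absent on all 3. All 69 mitochondrial ribosomal proteins, all 15 DNA replication genes and all 8 mitotic genes were present on all 3 arrays. PCNA, the sliding clamp of DNA polymerase, gave 5980, 6803 and 6818, and CycB, a mitotic cyclin, gave 11539, 10172 and 8868. The batches kept different orders for these genes, with CycB highest in batch 1 and PCNA highest in batch 3.

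Ribosomal and proteasome genes were divided into standard subunits and paralogs after the values were seen. All 26 standard proteasome subunits were present on all 3 arrays, at percentiles 86.4 to 97.5, from Rpn1 of the regulatory particle at the lower end to the catalytic subunit Prosbeta2 at the upper end. Of 14 paralogs whose names end in R or T and a number or letter, many of them known from the testis, 1 was present on all 3 arrays and 11 were absent on all 3. The present one was Rpn13R, at 78.4, 114 and 99.0. The 31 ribosomal proteins left as standard were all present on all 3 arrays, at percentiles from 99.0 upward. RpS5b was left among these 31, at 18903, 20990 and 16501, although RpS19b, with a name of the same form, was set apart as a paralog. Some paralogs were picked by hand, so this lower bound rests partly on the choice of members. Of the 10 set apart as paralogs, 7 were present on all 3 arrays, with RpL24-like, a factor of ribosome assembly, at 7044, 8502 and 7698. RpL10Aa was among the 2 that were absent on all 3.

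Genes of embryonic tissues were detected about as often as general machinery: 198 of 217 measured genes (91.2%) were present on all 3 arrays, against 60.9% of all named genes. Their median percentile was 75.0. Absent on all 3 arrays were 13 of them, namely futsch, Eip78C, sad, Act88F, zen, Hml, NimC1, lbe, Fbp1, Fbp2, nvd, eater and ple. These include genes of later blood cells (Hml, NimC1, eater), the indirect flight muscle actin of the adult (Act88F) and ple, the tyrosine hydroxylase of dopamine synthesis. In 11 of the tissue lists, from neuroblasts to tracheal genes, all measured members had present calls on all 3 arrays. The lists were chosen with earlier results of these data known, so this count is no check of the labelled stage.

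**Figure D2:**
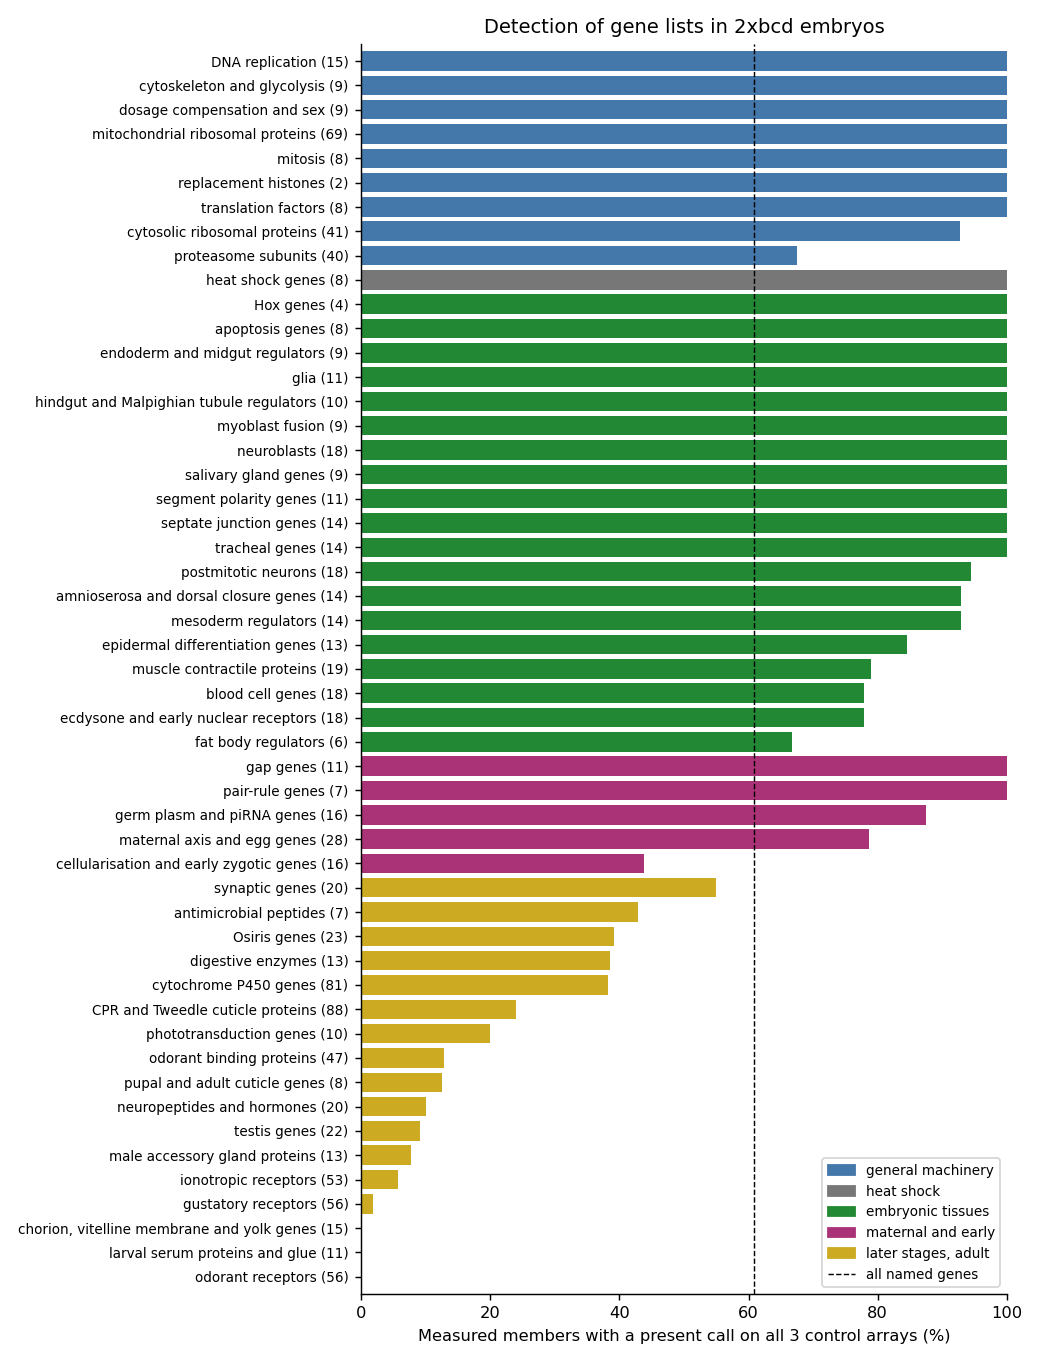
Share of the measured members of each gene list with a present call on all 3 control arrays (x axis, %), with the number measured in brackets. The dashed line is the share over all named genes, 60.9%, and lists of embryonic tissues (green) lie above it while lists of later stages and adults (yellow) lie below it.

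Transcription factors of the embryonic and early lists were detected in 103 of 107 cases (96.3%), with a median percentile of 71.3. The factors were picked out of the lists after the values had been seen. The brightest was rib, a BTB-domain factor needed in trachea and salivary gland, at 16797, 18244 and 18447. Far below it came nerfin-1, a zinc finger factor of early neurons, at 4839, 4614 and 5876, and ci, the transcriptional effector of Hedgehog signalling, at 4457, 5212 and 5201. zld, the pioneer factor of the first zygotic transcription, still gave 4175, 4206 and 4584. Batch 3 was the highest for 18 of the 20 brightest factors and for 73 of the 103 present on at least 2 arrays, against 34.6% of all named genes. With quantile normalization of the 3 arrays the counts were 19 and 79, and with median centring 20 and 94. Over all 7864 named genes present on at least 2 arrays, batch 3 was the highest for 2720 as deposited, 3069 after quantile normalization and 5090 after median centring, so median centring by itself moves most genes towards batch 3.

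**Figure D3:**
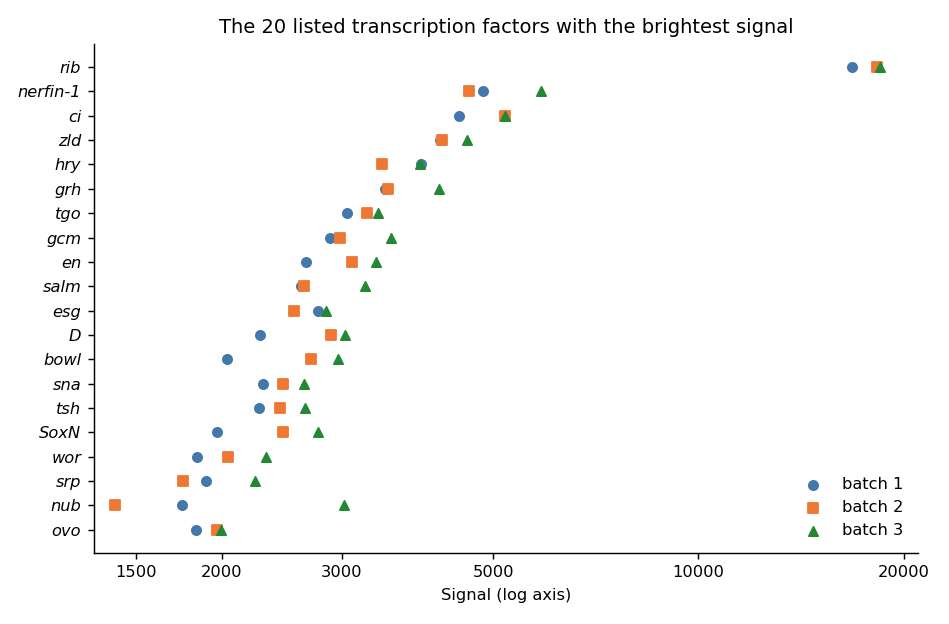
Signal (x axis, log scale) of the 20 brightest listed transcription factors, with 1 marker per batch. rib, at a mean of 17829, stands apart from the others, the next of which, nerfin-1, has a mean of 5110, and the batch 3 marker is the rightmost for 18 of the 20.

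The developing nervous system was well represented. All 18 measured neuroblast genes were present on all 3 arrays, at a median percentile of 88.5. mira, the adaptor that carries fate determinants to the daughter cell, gave 4258, 4770 and 5812, and pros, the homeodomain determinant it carries, gave 1768, 1813 and 2207. The temporal factors of the neuroblast series were present too, with nub at 1750, 1397 and 3022, pdm2 at 680, 841 and 894, and cas at 1447, 1614 and 1784. The lowest was ind, a column gene of the early neuroectoderm, at 141, 148 and 198. Batch 3 was the highest for 17 of the 18, as deposited, after quantile normalization and after median centring. For the 7864 named genes present on at least 2 arrays, these counts were 2720, 3069 and 5090. As deposited, nub alone differed by over 2-fold between batches, against 8.63% of all named genes present on at least 2 arrays. After quantile normalization or median centring 2 of the 18 did, against 604 and 598 of the 7864.

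Of 18 genes of postmitotic neurons, 17 were present on all 3 arrays. elav, the RNA-binding protein that marks neurons, was the brightest, at 6901, 8221 and 9457. Genes of axon guidance followed, with the netrin receptor fra at 3891, 4428 and 4785, comm, which controls midline crossing, at 3152, 3157 and 3870, and the Slit receptor robo1 at 2402, 2616 and 3056. By contrast the microtubule protein futsch, a marker of differentiated axons, was absent on all arrays, at 52.2, 49.7 and 52.3. All 11 glial genes were present on all 3 arrays. gcm, the switch from neuron to glia, gave 2888, 2986 and 3545, and repo, the glial homeodomain factor downstream of it, gave 1912, 1915 and 1968. repo differed by 1.03-fold between batches and gcm by 1.23-fold, with batch 3 highest for both.

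In the mesoderm, 13 of 14 regulators were present on all 3 arrays. The GATA factor pnr of the heart and dorsal ectoderm gave 1657, 2076 and 2017, and zfh1, needed in several mesodermal lineages, gave 1417, 1761 and 1878. twi, the early mesoderm determinant, was still called present on all arrays, at 260, 276 and 358. All 9 myoblast fusion genes were present as well. rst, an adhesion receptor of myoblast fusion, gave 3516, 3732 and 3816, while sns, the receptor on fusion-competent myoblasts, was the dimmest at 155, 201 and 242. As deposited, batch 1 was the highest in none of the mesoderm regulators and fusion genes, against 36.6% of all named genes. After quantile normalization it was the highest in 1 fusion gene, against 2474 of the 7864 named genes present on at least 2 arrays.

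Contractile proteins of muscle behaved differently from these regulators. Of 19 measured, 15 were present on all 3 arrays and 1, Act88F, was absent on all 3. The brightest was Act87E, a larval muscle actin, at 7313, 6413 and 6927. Mlc1, the alkali myosin light chain, gave 5024, 2502 and 911, and Mf, a myofilament protein, gave 1727, 692 and 152. Each of these was highest in batch 1 and lowest in batch 3, except Act87E, whose lowest value was in batch 2. In whole embryos, fewer cells of a type and less RNA per cell cannot be told apart.

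Surface tissues were led by the septate junctions, the barrier seals between epithelial cells. All 14 measured genes were present on all 3 arrays, none below percentile 85.7. The claudin pck gave 7392, 7589 and 7053, the immunoglobulin protein Lac gave 6802, 7694 and 7610, and the neurexin Nrx-IV gave 5760, 5014 and 6538. The epidermal list was more mixed, with 11 of 13 present on all 3 arrays. Its regulators grh and ovo were bright, at 3476, 3506 and 4166 for grh and 1834, 1970 and 1993 for ovo. Effectors of denticle and hair shape lay lower, with f (forked) at 82.3, 83.7 and 83.7 and sha (shavenoid) at 84.2, 189 and 97.0. The catecholamine enzymes of cuticle hardening were at the bottom: Ddc was called present in batch 1 alone, at 110, and ple in none.

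All 14 tracheal genes were present on all 3 arrays. Beside rib, the zinc finger factor salm of the dorsal trunk gave 2611, 2638 and 3240. The FGF receptor btl gave 265, 337 and 334 and its ligand bnl gave 447, 486 and 694. Gasp, a chitin-binding protein of the tracheal lumen, was the most variable between batches at 2187, 2948 and 1124, followed by the POU factor vvl at 917, 1291 and 1976. Gasp was lowest in batch 3, and vvl was highest there. The 9 salivary gland genes were also present throughout. The general secretory genes Sec61alpha and SrpRalpha were the brightest of that list, at 11845, 12941 and 12126 for Sec61alpha. The gland's own regulators lay lower, with fkh at 781, 805 and 902 and sage at 331, 338 and 448.

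Segment identity and polarity genes remained detected. All 11 segment polarity genes were present on all 3 arrays. en, which marks posterior compartments, gave 2661, 3111 and 3372, and the ligand gene hh gave 616, 746 and 783. The Hedgehog receptor gene ptc was the lowest of the list, at 144, 209 and 268. The T-box gene mid differed most between batches, at 459, 614 and 1138. Of the 8 Hox genes, 4 had a probe set of their own, and all 4 were present on all 3 arrays. Antp of the thorax gave 1393, 1481 and 1718, and Scr of the labial and first thoracic segments gave 758, 732 and 946. Dfd of the jaw segments gave 394, 349 and 337, and pb, a Hox gene of the mouthparts, gave 42.4, 46.0 and 56.3.

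Gut regulators were likewise detected in full, with 9 of 9 genes of endoderm and midgut and 10 of 10 of hindgut and Malpighian tubules. The GATA factor genes srp and GATAe gave 1899, 1754 and 2239, and 953, 881 and 1066. byn, the hindgut determinant, gave 195, 236 and 223, and bowl, a zinc finger factor, gave 2039, 2708 and 2962. For all 9 endoderm and midgut genes the highest value was in batch 3 as deposited, and for 8 of 9 after quantile normalization. The counts over the 7864 named genes present on at least 2 arrays were 2720 and 3069. Of 4 present members of the fat body list, srp, ush and svp are shared with other tissues. The fat body proteins of the larva, Fbp1 and Fbp2, were absent on all 3 arrays.

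Blood cell genes were divided between early and late ones. Of 18, 14 were present on all 3 arrays. Ppn, a matrix protein secreted by blood cells, gave 3931, 3043 and 3598, and the engulfment receptor drpr gave 3016, 3127 and 3910. The prophenoloxidase genes of crystal cells were present, with PPO2 at 2025, 2277 and 2225 and PPO1 at 1220, 1110 and 1185. Type IV collagen showed the largest batch differences of the list among members present on all 3 arrays, with vkg at 1936, 614 and 576 and Col4a1 at 2390, 1282 and 926. Both were highest in batch 1 and lowest in batch 3. Late plasmatocyte genes were not detected, with NimC1 at 23.6, 4.10 and 4.10 and eater at 2.60, 1.50 and 15.5.

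Of the 14 genes of the amnioserosa and of dorsal closure, 13 were present on all 3 arrays. Ance, a peptidase of the amnioserosa, was the brightest at 9171, 10690 and 10729. puc, the phosphatase that is both target and brake of JNK signalling, gave 1218, 1090 and 1161. zen, which specifies the amnioserosa in the blastoderm, was absent, at 31.8, 24.3 and 4.70. All 8 measured apoptosis genes were present. The inducer skl gave 1504, 1462 and 1974 and the inducer grim gave 243, 285 and 414, while the caspase Dcp-1 varied least, at 1523, 1530 and 1526. Of the 18 genes of ecdysone synthesis and response, 14 were present on all 3 arrays. ImpE2, an ecdysone-induced gene, was highest in batch 2, at 1058, 3407 and 1193. The receptor gene EcR gave 809, 605 and 1427, with its highest value in batch 3. Its 3 genes absent on all 3 arrays were sad and nvd, of ecdysone synthesis, and the nuclear receptor gene Eip78C.

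Maternal and early zygotic genes lay between the embryonic and the later lists in detection. Of 75 measured, 58 (77.3%) were present on all 3 arrays, against 60.9% of all named genes. Absent on all 3 were 14 (18.7%), against 26.2%, and the median percentile was 51.6. Gap genes and pair-rule genes were present without exception, 11 of 11 and 7 of 7. hb gave 1385, 1309 and 1870, Kr gave 1098, 1326 and 1450, and hry gave 3917, 3434 and 3913. Many of these genes are known to be used again in neuroblasts, Malpighian tubules and other tissues. Genes of cellularisation and of the first zygotic hours were the opposite. Of 16, 7 (43.8%) were present on all 3 arrays and 9 (56.2%) were absent on all 3. nullo, bnk, halo, scw and zen were among the absent ones. The present ones were zld, sna, twi, slam, Sry-alpha, sc and ftz, of which zld and sna also act in neuroblasts.

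The maternal axis and egg genes gave 22 of 28 (78.6%) present on all 3 arrays, against 60.9% of all named genes. Tl, the Toll receptor gene, was brightest at 5511, 4747 and 5224. It was followed by cact, an inhibitor within the Toll pathway, at 5124, 3977 and 3294. smg, the regulator of maternal RNA decay, gave 5399, 3894 and 2643. bcd itself, named here although it falls outside the naming rule, gave 861, 546 and 301 on its brighter probe set, with present calls on all 3 arrays. A second bcd probe set was absent on all 3, at 21.6, 11.2 and 3.90. The brighter bcd probe set and smg were highest in batch 1 and lowest in batch 3. swa, which is needed to localise bcd RNA, had the same order, at 622, 370 and 233. Of the germ plasm and piRNA genes, 14 of 16 were present on all 3 arrays, most of them dim. vas gave 34.2, 52.3 and 28.6 and osk gave 79.0, 63.9 and 57.4, whereas aub gave 341, 311 and 308.

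As deposited, 17 of the 24 maternal genes present on at least 2 arrays were highest in batch 1, against 36.6% of all named genes. After quantile normalization the count was 14, and after median centring it was 11. Among all 7864 named genes present on at least 2 arrays, the counts were 2878, 2474 and 1231 in the same order. The scaling thus bears on the counts of both. As deposited, bcd, swa and smg differed between their highest and lowest batch by 2.77-fold, 2.56-fold and 2.04-fold. These were the 3 of the 24 past 2-fold (12.5%), against 8.63% of all named genes present on at least 2 arrays. With median centring 2 of the 24 were past it, against 598 of the 7864 named genes.

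Genes of later stages and of the adult were mostly not detected. Of 543 measured, 98 (18.0%) were present on all 3 arrays, against 60.9% of all named genes. Absent on all 3 were 317 (58.4%), against 26.2%, and the median percentile was 21.3. These totals include whole gene families taken by name, from odorant receptors with 0% to Osiris genes with 39.1% present on all 3 arrays. No chorion, vitelline membrane or yolk gene was present on all 3 arrays, and 13 of 15 were absent on all 3. The same held for larval serum and glue genes, with none of 11 present on all 3 arrays, and for odorant receptors, with none of 56. Testis genes were present on all 3 arrays in 2 of 22 cases, mia and can, both of which are needed for male meiosis and sperm formation. Of the 13 accessory gland proteins 1 was present on all 3 arrays. Gustatory receptors gave 1 of 56, Gr28b, and ionotropic receptors gave 3 of 53, Ir68a, Ir25a and Ir40a. These few chemoreceptors were dim, with Ir25a, a coreceptor, at 58.6, 46.7 and 55.7 and Gr28b at 85.7, 58.5 and 66.3.

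Some members of the later lists were bright nonetheless. Obp99a, a secreted protein of the odorant binding family, gave 14074, 16759 and 15242, at percentile 99.6. It lay far above the next of that family, Obp56a, at 1145, 1086 and 979, and 30 of the 47 family members were absent on all 3 arrays. Osi6, of the Osiris family of epithelial membrane proteins, gave 6166, 9284 and 3630. Among the P450 enzymes, Cyp6d5 gave 7510, 5472 and 5996, and 31 of 81 were present on all 3 arrays. Of the synaptic genes 11 of 20 were present on all 3 arrays. Csp, a chaperone of synaptic vesicles, was the brightest at 3186, 3075 and 3375, and the vesicle protein nSyb was absent on all 3, at 58.6, 15.8 and 13.1. Hormone precursors were rarely detected, with 2 of 20 present on all 3 arrays, ETH at 171, 186 and 209 and Mip at 61.8, 44.3 and 43.5. All 8 measured heat shock genes were present, from Hsc70-4 down to the inducible Hsp68 at 127, 166 and 202.

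The 3 batches resembled each other over most genes. Over the 8976 probe sets present on all 3 arrays, the correlation of log2 signals was 0.977 between batches 1 and 2, 0.963 between 1 and 3 and 0.983 between 2 and 3. These values are across probe sets, which are not independent replicates, and they are a description. The SD between batches had a median of 0.161 on the log2 scale over the 9807 probe sets present on at least 2 arrays. With these probe sets cut into 5 equal classes by signal, it was 0.299 in the dimmest class and 0.109 in the brightest. Among the steadiest bright genes were CG7997, at 4688, 4700 and 4705, and Ras64B, a Ras-like GTPase, at 3222, 3224 and 3245. Cytosolic and mitochondrial ribosomal proteins, with 0 of 38 and 0 of 69 members past 2-fold, were steady as groups. Batch 2 was the highest for 35 of the 38 cytosolic ones as deposited, against 28.8% of all named genes. It was the highest for 19 after quantile normalization and for 30 after median centring. The counts over the 7864 named genes present on at least 2 arrays were 2266, 2321 and 1543 in the same order.

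A range of over 2-fold between batches was found for 806 of 9807 probe sets (8.22%), and for 679 of 7864 named genes (8.63%) present on at least 2 arrays. Of these 679 genes, 527 were highest in batch 1, which is 6.70% of the 7864, 130 were highest in batch 2 (1.65%) and 22 in batch 3 (0.280%). Batch 3 was the lowest for 548 of the 679. Without batch 1 the count of probe sets was 183, without batch 2 it was 412 and without batch 3 it was 319, where 2 arrays in place of 3 can only narrow the range. The array medians of log2(signal + 16) lay 0.17 above, 0.02 below and 0.15 below their mean in batches 1, 2 and 3. As deposited, the split over batches 1, 2 and 3 was 77.6%, 19.1% and 3.24%. With quantile normalization it was 65.1%, 25.2% and 9.77%, and with median centring 58.0%, 25.8% and 16.2%.

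**Figure D4:**
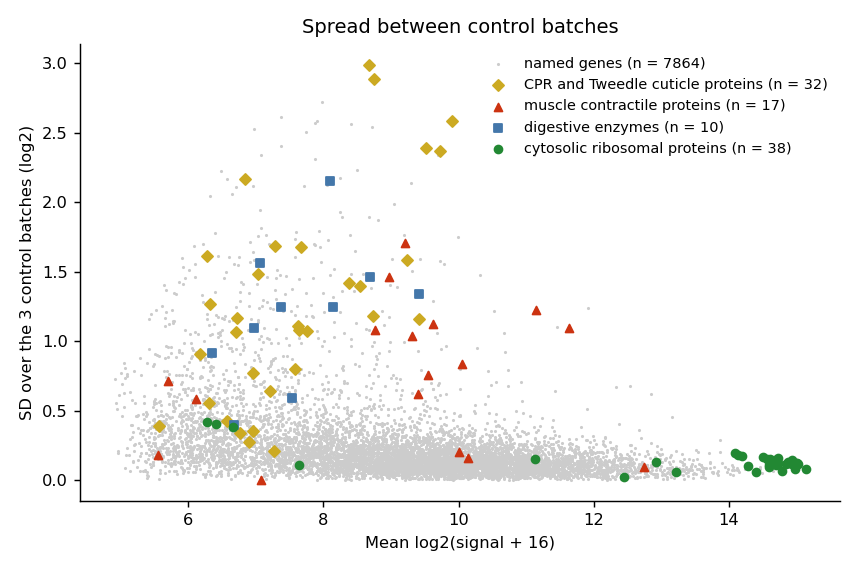
SD over the 3 control batches on the log2 scale (y axis) against mean log2(signal + 16) (x axis) for the 7864 named genes present on at least 2 arrays. Cuticle proteins (yellow diamonds), contractile proteins (red triangles) and digestive enzymes (blue squares) lie high, and the bright ribosomal proteins (green circles) lie near the bottom.

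Cuticle and muscle genes were among the 15 named for the widest range, beside others such as CG13705, CG7299, IM33 and Prx6c. Lcp65Ag3, a larval cuticle protein, gave 11842, 1963 and 450, and Cpr47Eg, with a chitin-binding domain of the same kind, gave 4738, 693 and 164. TwdlN and TwdlM, of the Tweedle family of cuticle proteins, gave 7528, 360 and 293, and 4879, 320 and 222. Both Tweedle genes were far higher in batch 1 than in either of the other batches. TwdlB, outside the naming rule and named after its values were seen, had the widest range of the genes present on all 3 arrays, 37.1-fold, at 4449, 111 and 104. Of 32 cuticle genes of the Cpr and Tweedle families present on at least 2 arrays, 26 differed by over 2-fold, and 25 of those were highest in batch 1. Over all named genes present on at least 2 arrays, 8.63% differed by over 2-fold, and 77.6% of those were highest in batch 1. In all, 28 of the 32 were highest in batch 1 as deposited, 28 after quantile normalization and 27 after median centring. Over all 7864 named genes present on at least 2 arrays, these counts were 2878, 2474 and 1231.

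Of the 17 contractile proteins present on at least 2 arrays, 12 differed by over 2-fold, and all 12 were highest in batch 1. Over all named genes, 8.63% were past 2-fold, and 77.6% of those were highest in batch 1. Besides Mlc1 and Mf, the LIM protein Mlp60A gave 7093, 2908 and 1545, the tropomyosin Tm2 gave 1748, 736 and 357, and the calponin-like Mp20, which is not in this list, gave 3335, 1059 and 280. For these genes batch 2 lay between the others. Against 36.6% of all named genes, 15 of 17 were highest in batch 1 as deposited, with 14 after quantile normalization and 13 after median centring. The counts over the 7864 named genes present on at least 2 arrays were 2878, 2474 and 1231 in the same order. The thick filament protein Prm and the troponin T gene up ran the same way, at 1377, 477 and 168 and at 894, 422 and 187. sls, the titin-like gene, did not, at 1014, 1074 and 1267.

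Digestive enzymes and Osiris genes had another order. Of 10 digestive enzymes present on at least 2 arrays, 9 differed by over 2-fold, 4 of them highest in batch 1 and 5 in batch 2. Over all named genes 8.63% differed by over 2-fold, with 77.6% of those highest in batch 1 and 19.1% in batch 2. The serine protease Jon65Aiv gave 574, 1815 and 276, and alphaTry gave 605, 846 and 114, whereas the maltase Mal-A1 gave 275, 114 and 154. None of the 10 was highest in batch 3 under any of the 3 scalings. Osiris genes were past 2-fold in 8 of 10 cases, 4 highest in batch 1 and 4 in batch 2, and for none of the 10 was batch 3 the highest. Osi15 gave 1657, 2290 and 868, and Osi9 gave 394, 538 and 122.

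Among synaptic genes present on at least 2 arrays, 5 of 12 differed by over 2-fold as deposited, against 8.63% of all named genes. All 5 were highest in batch 1, as were 77.6% of all named genes past 2-fold. After quantile normalization or median centring, 4 of the 12 differed by over 2-fold, all highest in batch 1. Gad1, which makes the transmitter GABA, gave 386, 93.7 and 64.6, and Syn, the synapsin gene, gave 242, 100 and 59.2. The neuroblast genes ran the other way as deposited, with batch 3 highest for 17 of 18, as did the segment polarity genes with 9 of 11. Over all named genes present on at least 2 arrays, batch 3 was the highest for 34.6%. Each batch is 1 array, so batch and array cannot be told apart, and their part in these differences was not tested.

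**Figure D5:**
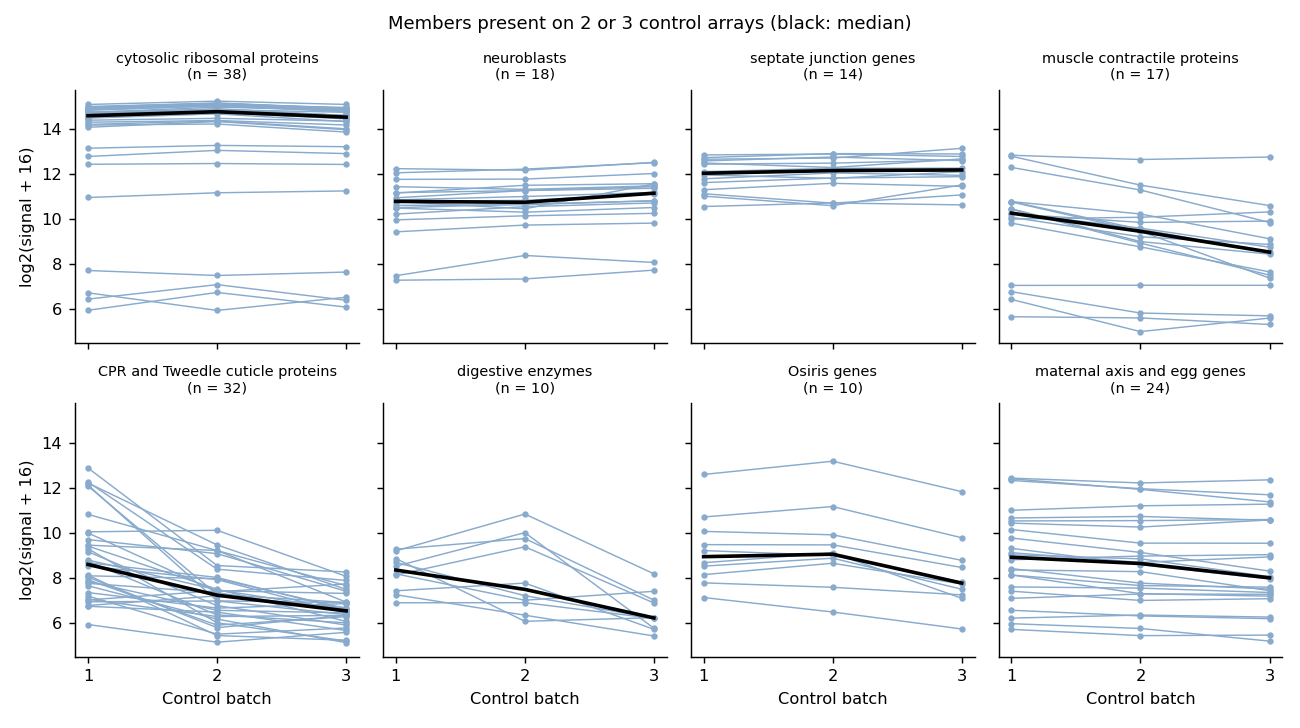
log2(signal + 16) (y axis) in control batches 1, 2 and 3 (x axis, batches have no order) for members of 8 lists that were present on at least 2 arrays, with a line per gene and the median in black. Contractile and cuticle proteins are mostly highest in batch 1, digestive enzymes and Osiris genes are lowest in batch 3 by their medians, and neuroblast genes are highest in batch 3 with 1 exception.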

How the data were processed

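Total RNA of 3 control embryo samples was measured on 3 Affymetrix GeneChip Drosophila Genome 2.0 arrays. RNeasy columns and DNase I served for extraction and the One-Cycle procedure for labelling, per the labels' protocols. GCOS was the authors' software for the scans, per the submitters' processing notes, with no version given in the sources used here. Each deposited signal is a linear-scale intensity, and the deposited detection calls (present, marginal or absent) were made by the authors. Both deposited tables hold the same signals. The trimmed mean, with 2% left out per end, was 500 on each array.

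From these, log2(signal + 16) was computed with no further normalization. Control probe sets (183 of 18952) were left out. Of 18769 probe sets, 13647 had 1 gene symbol, 402 several and 4720 none, and those with several gave no gene name. RefSeq's gene table (assembly: Release 6 plus ISO1 MT) held the gene number of 13544 and gave names, chromosomes and gene order. Of 1302 entries in 51 gene lists, 1067 had a probe set of their own. The detection calls separated the signals of their own array with an area under the curve of 0.985 to 0.986.

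Named genes are the 25 brightest, the 20 brightest outside ribosomal proteins and translation factors, up to 4 highest and 3 lowest members of each list and all members of embryonic lists, the 15 with the widest range and 10 with the smallest SD among those present on all 3 arrays above the median of these, the 10 brightest absent genes, and the 20 brightest listed transcription factors. Genes outside this rule were named after their values were seen: bcd, swa, osk, aub, nullo, halo, Sry-alpha, sc, ftz, Osi9, Mal-A1, Gad1, Syn, nSyb, Rpn13R, RpL24-like, RpS5b, Eno, Ald1, TwdlB and the noncoding RNA, chromosome and probe set examples of the closing section. The arrays, lists and rules were chosen with earlier results of these data known. The list of transcription factors, the division into paralogs and the count of highest batches per scaling were added after the values were seen. In the tracheal list 1 symbol that named another gene was corrected to dysf. Alternatives were another offset, scaling, detection rule, deposited table or probe set, and leaving out each array. The code was tested on simulated data. Promoter motifs and protein lengths were not analysed here. Python 3.11.15, pandas 2.3.3, numpy 2.4.6, scipy 1.17.1 and matplotlib 3.10.9 were used.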

Additional observations from a re-analysis of the deposited data

How the results depend on the processing

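No paired analysis was possible because 1 group was described, with no contrast and no test. The count of 806 probe sets with a range of over 2-fold was taken with an offset of 16. It became 1086 with an offset of 1 and 474 with an offset of 64. Over probe sets present on all 3 arrays it was 489. Leaving out 1 array gave 183 to 412. The median SD between batches, 0.161, became 0.248 with median centring and lay between 0.102 and 0.150 with 1 array left out. With a present call required on 2 of 3 arrays, the share present was 93.1% for embryonic genes in place of 91.2%, 80.0% for maternal and early genes in place of 77.3%, and 26.7% for later genes in place of 18.0%. Counting marginal calls as present gave 78.7% for maternal and early genes. With 1 array left out, these shares were 91.2% to 92.6%, 77.3% to 78.7% and 18.4% to 24.1%, since fewer present calls are then required. The median list percentile, 67.9, was 66.7 to 69.8. Of the other values, 17 of 561 list counts, 24 of 459 list percentiles and 256 of 9585 gene percentiles moved beyond their spread, and 202 of the latter came from using all probe sets of a gene; the cause of the rest was not tested. Dim signals limit the spread: of 5 classes by signal, 21.3% of probe sets passed 2-fold in the dimmest and 0.968% in the brightest.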

Other observations

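Noncoding RNAs were seldom detected: 16 of 77 long noncoding RNAs (20.8%) were present on all 3 arrays, against 61.6% of protein-coding genes. The brightest of them was the alphagamma-element RNA CR32865, at 11440, 11862 and 12745 in batches 1, 2 and 3, followed by CR42862 at 8240, 8672 and 8550. The small nucleolar RNA host genes Uhg4 and Uhg3 gave 1796, 1970 and 2096, and 824, 1017 and 1002. All of these had present calls on all 3 arrays, and their ranges lay under 1.3-fold.

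By chromosome, the share of named genes present on all 3 arrays was 62.7% on X, 59.7% on 2L, 61.0% on 2R, 61.4% on 3L and 61.0% on 3R. On chromosome 4 it was 89.2%, 58 of 65 genes. None of the 4 named genes of the Y chromosome was present on any array. Along the chromosomes, the next gene was present on all 3 arrays in 72.1% of cases after a present gene and in 44.1% after a gene that was not.

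Of the 100 brightest probe sets, 60 carried no symbol in the annotation used here, 38 carried 1 and 2 carried several. The brightest without a symbol had a mean signal of 36324, against 36185 for RpL41. These probe sets are in no gene count.

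Probe sets of the same gene often had different calls. Of 1094 genes with several probe sets, 288 (26.3%) had a probe set present on all 3 arrays beside one absent on all 3, and the median gap between the brightest and the dimmest probe set of a gene was 1.48 on the log2 scale. kibra, which encodes a Hippo pathway protein, was the brightest gene absent on all 3 arrays, at 262, 266 and 268. Its dimmer probe set, at 57.3, 76.2 and 79.9, had present calls in batches 1 and 2. The next of the bright absent genes were mms4 at 149, 201 and 240 and CG13313 at 159, 183 and 177.

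Some genes outside the cuticle and muscle lists also differed by over 2-fold between batches. Prx6c, a peroxiredoxin, was lowest in batch 2 and highest in batch 3, at 1942, 558 and 2872. MtnA, a metallothionein, was highest in batch 1 and lowest in batch 3, at 7033, 5666 and 1427. The glycolytic genes Gapdh1 and Tpi had the same order as MtnA, at 917, 820 and 443 (2.03-fold) and at 986, 775 and 404 (2.38-fold). Of the other listed glycolytic genes, Pgk and Eno had this order within 2-fold, at 1.65-fold and 1.29-fold, and Ald1 was lowest in batch 2. After median centring no member of the cytoskeleton and glycolysis list was past 2-fold.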
